A study of Mus musculus with 14 samples.

Results

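The OAS, IFIT and ISG20 genes encode antiviral proteins that act on RNA. The 9 genes described here are Oas1a, Oas2, Oas3, Oasl1, Oasl2, Ifit1, Ifit2, Ifit3 and Isg20. They were chosen by name, through the RefSeq symbol of each array probe, among 24908 genes or transcripts tested. They are represented by 12 probes, of which 11 passed the filter on dim probes. RNA of splenocytes was measured on 14 one-colour Agilent arrays, with 7 WT and 7 Sting gt/gt mice. All mice were C57BL/6, were immunized at an age of 10 to 14 weeks with chick type II collagen (CII) in complete Freund's adjuvant (CFA), and were killed 2 weeks later. No mice without the injection are compared here, so a level cannot be set against an unimmunized spleen. Sting gt/gt mice (golden ticket, Tmem173gt) carry a chemically induced mutation of the DNA-sensing adaptor STING in all cells. They came from another colony than the purchased WT mice, so that genotype and colony cannot be told apart.

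Type I interferon binds the receptor IFNAR and activates a complex that includes STAT2 and IRF9, which binds interferon-stimulated response elements in promoters. Enzymatically active OAS proteins make 2-5A, a signalling molecule of the antiviral response, from ATP upon binding double-stranded RNA. IFIT proteins bind RNA or other IFIT proteins and can restrict translation of foreign RNA, whereas ISG20 is an exonuclease of single-stranded RNA. STING, when activated by cyclic dinucleotides, can induce type I interferon.

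The core of the response element is 2 copies of GAAA parted by any 2 bases. It was looked for on both strands in RefSeq promoter windows of GRCm38.p6, which reach from 250 bases before to 50 bases after a start site. Of 32851 windows, 3.44% held the motif, and 0.116% held 3 such copies in a row. The RefSeq table had 11 windows for 8 of the 9 genes, and Oas2 was not among them. Matches were found in 4 of the 11 windows and in 4 genes, namely Oas1a, Oas3, Ifit1 and Ifit3. Of all 27025 genes with a window, 3.99% had a match. The stretches around the matches of these 4 genes are shown because interferon is known to act through response elements with this core. Each runs 5′ to 3′ on the strand of the gene, ends at or before the start site, and has the matches in capitals.
Ifit1, chr19:34640760-34640838, plus strand: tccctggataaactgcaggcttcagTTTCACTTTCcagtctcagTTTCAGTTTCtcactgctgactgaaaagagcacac
Ifit3, chr19:34583348-34583441, plus strand: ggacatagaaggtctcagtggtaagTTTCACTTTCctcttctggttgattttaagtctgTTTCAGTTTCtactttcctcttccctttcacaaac
Oas1a, chr5:120907526-120907570, minus strand: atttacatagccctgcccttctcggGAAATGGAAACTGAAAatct
Oas3, chr5:120777700-120777759, minus strand: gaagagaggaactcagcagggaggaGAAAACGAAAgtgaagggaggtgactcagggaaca
Ifit1 and Ifit3 each had 2 matches in the opposite orientation (TTTC, any 2 bases, TTTC), from 104 to 76 and from 156 to 113 bases before the start. In Oas1a 2 overlapping matches made up 3 copies, from 20 to 5 bases before the start, and Oas3 had 1 match from 75 to 66 bases before it. The windows of Oasl1, Oasl2, Ifit2 and Isg20 held no match, which says only that these letters are not in them. A match is likewise a description and not a measured binding site.

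Levels are given as the scaled log2 signal, which is the log2 of the processed intensity minus the 75th percentile of its array. A value of 0 is therefore that percentile, and a level of 1 probe can be compared between arrays but not with that of another probe. Each gene was read from its brightest tested probe. These 9 probes were well above background on all 14 arrays, and none was saturated. The 75th percentile of the processed intensity ranged from 403 to 490 in Sting gt/gt and from 416 to 550.0 in WT arrays. Replicates 1 to 3 of both genotypes were scanned on 1 day (6 arrays) and replicates 4 to 7 on another (8 arrays). On the second day each slide held only 1 genotype, so that slide and genotype cannot be told apart there. Of all genes, 38.8% differed between the scan days (limma with genotype in the model, adjusted p under 0.05), and the replicate sets are therefore also given apart. The mutation is not seen as a loss of its mRNA. Sting1 lay between 2.92 and 3.29 in Sting gt/gt and between 2.85 and 3.33 in WT mice (difference 0.04, SE 0.096, limma adjusted p = 0.999).

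Across all 14 arrays, none of the 9 genes passed an unadjusted p of 0.05 between Sting gt/gt and WT (limma), at which 3.54% of all genes were called. The genotypes overlapped in each of the 9 genes. Such an overlap was lacking in 0.0482% of the genes tested. The level was lower in Sting gt/gt in 8 of 9 genes (9 of 9 under median centring, quantile normalization or no scaling), with a median difference of -0.18 on the log2 scale against 0.02 over all genes tested. The differences ranged from -0.36 for Ifit1 to 0.01 for Oas1a, and each had an adjusted p of 0.999. Of all genes, 44.2% were lower in Sting gt/gt. The members vary together between mice, as described further on, so that 8 lower genes are not 8 separate observations.

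**Figure D1:**
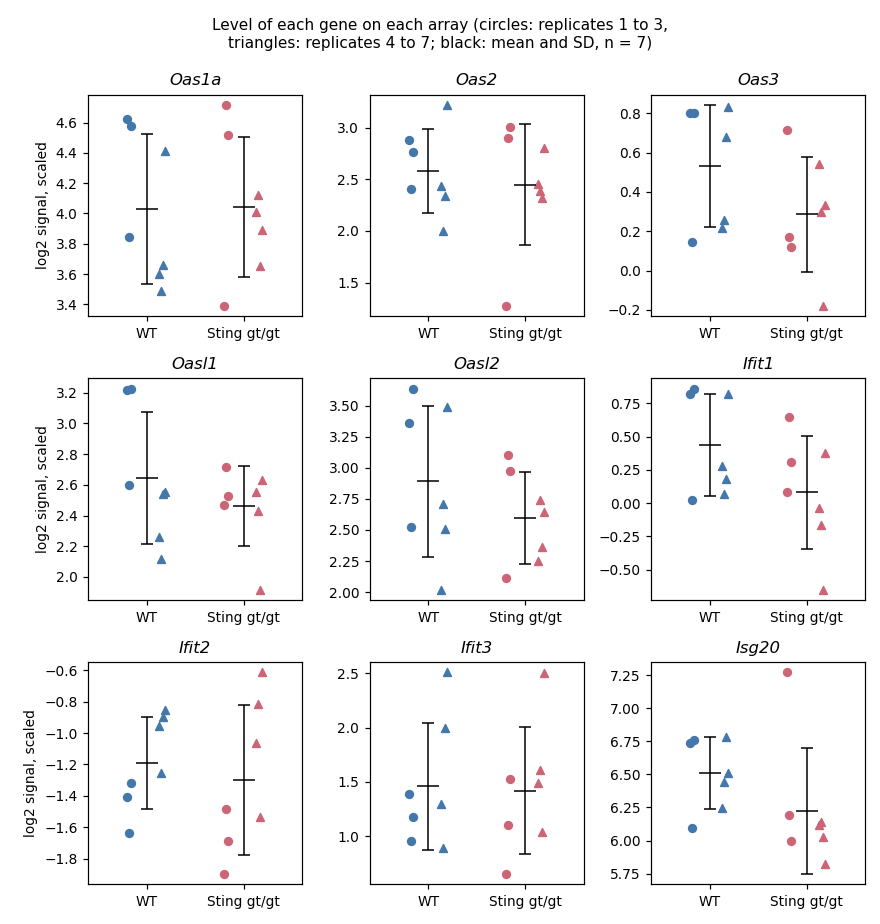
Scaled log2 signal of the 9 genes on each array (y axis, one scale per gene), by genotype (x axis), with circles for replicates 1 to 3, triangles for replicates 4 to 7, and the mean with its SD in black (n = 7). The genotypes overlap in every panel, and Sting gt/gt replicate 1 is the lowest Oas2 array but the highest Isg20 array.

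Oas1a, Oas2 and Oas3 encode OAS proteins that make 2-5A. Oas3, the long form with the highest affinity for long double-stranded RNA, lay between -0.18 and 0.72 in Sting gt/gt (median 0.30) and between 0.14 and 0.83 in WT mice (median 0.68). Sting gt/gt replicates 3 and 6 were below all WT arrays, and no Sting gt/gt array reached the highest WT array. The difference was -0.25 (SE 0.16, limma adjusted p = 0.999), and it was -0.25 in either replicate set.

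Oas1a, the best known enzymatically active Oas1 gene of the mouse, lay between 3.39 and 4.72 in Sting gt/gt (median 4.01) and between 3.49 and 4.62 in WT mice (median 3.84). Both the lowest and the highest of the 14 arrays were Sting gt/gt arrays, replicates 1 and 2. The difference was 0.01 (SE 0.24, 95% interval -0.49 to 0.52), with an adjusted p of 0.999 in limma, and it lay between -0.046 and -0.0035 under median centring, quantile normalization and no scaling. Oas2, which makes 2-5A as well, lay between 1.27 and 3.005 in Sting gt/gt (median 2.45) and between 2.003 and 3.23 in WT mice (median 2.44). Sting gt/gt replicate 1 stood far below the others, and WT replicate 7 was the highest. The difference was -0.13 (SE 0.25, limma adjusted p = 0.999). Without Sting gt/gt replicate 1 it was 0.07. A second Oas2 probe was well above background on only 2 of 14 arrays and was not tested.

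Oasl1 and Oasl2 are OAS-like genes that lie next to each other on chromosome 5. OASL1 has no 2-5A activity and restrains translation of Irf7 mRNA, whereas mouse OASL2 retains the activity. Oasl1 lay between 1.91 and 2.72 in Sting gt/gt (median 2.52) and between 2.12 and 3.23 in WT mice (median 2.55). WT replicates 1 and 3 were above all Sting gt/gt arrays, and Sting gt/gt replicate 6 was below all WT arrays. The difference was -0.18 (SE 0.18, limma adjusted p = 0.999), and a second probe gave -0.13. Oasl2 lay between 2.11 and 3.10 in Sting gt/gt (median 2.64) and between 2.02 and 3.64 in WT mice (median 2.71). WT replicates 1, 3 and 7 were above all Sting gt/gt arrays, while WT replicate 4 was the lowest of all. The difference was -0.30 (SE 0.25, limma adjusted p = 0.999).

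Ifit1 had the largest difference of the 9 genes. IFIT1 recognizes the 5′ end of RNA that lacks cap methylation. Ifit1 lay between -0.65 and 0.65 in Sting gt/gt (median 0.09) and between 0.03 and 0.86 in WT mice (median 0.28). WT replicates 1, 3 and 7 were above all Sting gt/gt arrays, and 3 Sting gt/gt arrays (replicates 4, 5 and 6) were below all WT arrays. The mean signal was 21.9% lower in Sting gt/gt, a difference of -0.36 (SE 0.20, 95% interval -0.79 to 0.08, limma adjusted p = 0.999), with a two-sided exact permutation p of 0.122. It passed the threshold without Sting gt/gt replicate 2, with a difference of -0.45, in a fit that called 4.84% of all genes.

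Ifit2 and Ifit3 encode proteins that bind IFIT1 or one another. Ifit2 lay between -1.90 and -0.62 in Sting gt/gt (median -1.49) and between -1.63 and -0.85 in WT mice (median -1.25). Sting gt/gt held both the lowest arrays (replicates 1 and 3) and the highest (replicates 5 and 7). The difference was -0.11 (SE 0.20, limma adjusted p = 0.999). Ifit3 lay between 0.65 and 2.51 in Sting gt/gt (median 1.49) and between 0.89 and 2.51 in WT mice (median 1.29), and the highest arrays of the genotypes, both replicate 7, were alike. The difference was -0.04 (SE 0.29, limma adjusted p = 0.999), and it turned to 0.09 without Sting gt/gt replicate 1. Ifit3 and Ifit3b are close copies, as are Oas1a and Oas1g, and whether their probes tell the copies apart was not tested.

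Isg20 lay between 5.82 and 7.27 in Sting gt/gt (median 6.12) and between 6.09 and 6.78 in WT mice (median 6.51). Sting gt/gt replicate 1 was the highest of all 14 arrays, and 3 of the other Sting gt/gt arrays (replicates 3, 6 and 7) were below all WT arrays. The difference was -0.29 (SE 0.20, limma adjusted p = 0.999), with an exact permutation p of 0.194, and a second probe gave -0.30. Without Sting gt/gt replicate 1 the difference was -0.46 and passed the threshold, in a fit that called 7.88% of all genes. With slide as a fixed block, where only the 5 arrays on slides with both genotypes bear on the difference, it turned to 0.24. Isg20 is on the gene list that the study drew from these same arrays, so its direction is not independent evidence.

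In the log2 table that the authors deposited, whose normalization is not given in the sources used here, all 9 genes were lower in Sting gt/gt, with a median of -0.20. None passed the threshold, which 7.74% of all genes did. Oas1a is the gene whose direction differed, with -0.01 there, and Ifit1 was again the gene with the largest difference (-0.34, SE 0.17, limma adjusted p = 0.651).

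Within replicates 1 to 3, all 9 genes were lower in Sting gt/gt, with a median of -0.24 against 0.00267 over all genes, and none was called, while 3.77% of all genes were. The largest differences were those of Oasl2 (-0.45, SE 0.36) and Oasl1 (-0.44, SE 0.20), and the smallest was that of Isg20 (-0.04, SE 0.36). With 3 mice against 3, each value rests heavily on single arrays. Sting gt/gt replicate 1 had the lowest level of the 6 arrays for Oas1a, Oas2, Oasl1, Oasl2, Ifit2 and Ifit3, and the highest for Isg20.

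Within replicates 4 to 7, 7 of 9 genes were lower in Sting gt/gt, with a median of -0.01. Isg20 was the 1 gene called. It was 6.12, 6.14, 6.03 and 5.82 in Sting gt/gt replicates 4 to 7 and 6.24, 6.45, 6.78 and 6.51 in the WT replicates of the same numbers. The genotypes did not overlap, and 6.78% of all genes did not overlap in this direction. The difference was -0.47 (SE 0.13, limma p = 0.00686, adjusted p = 0.0928), with a two-sided exact permutation p of 0.0286, the smallest that 4 mice against 4 allow. In this set 23.7% of all genes were called and 11.3% were called lower, so that 1 call among 9 genes is close to the background. The second Isg20 probe gave -0.56 in this set and 0.04 in replicates 1 to 3. In the authors' table the difference was -0.51 (limma adjusted p = 0.0687), again with no overlap, where 12.6% of all genes were called lower. Ifit1 was the next largest, at -0.46 (SE 0.23, limma adjusted p = 0.265). The differences of the other 7 genes ran from -0.25 for Oas3 to 0.13 for Oas1a.

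**Figure D2:**
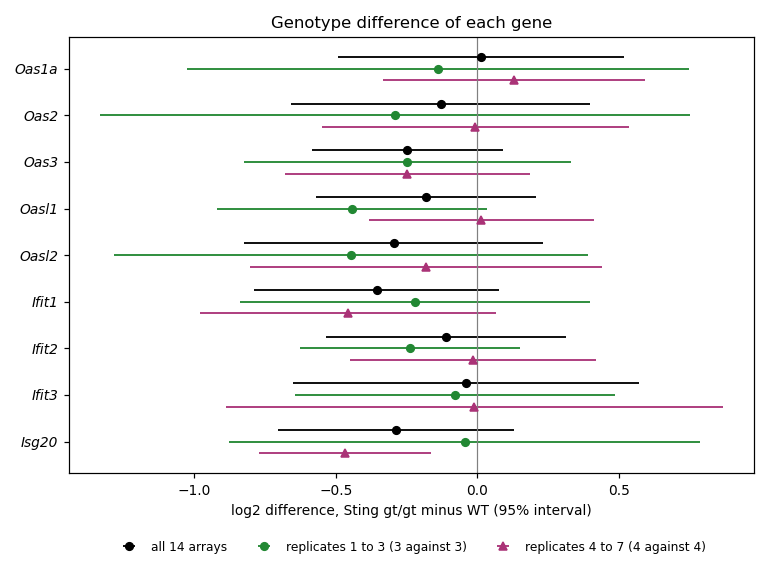
Log2 difference of Sting gt/gt minus WT (x axis) for each of the 9 genes (y axis), with 95% intervals from limma, for all 14 arrays, replicates 1 to 3 and replicates 4 to 7. The interval of Isg20 in replicates 4 to 7, around -0.47, is the only one that leaves out 0.

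A difference between the replicate sets in the effect of the genotype was not detected for any of the 9 genes. The interaction term of limma had an adjusted p from 0.407 (Oasl1) to 0.999 (Oas3), and none of the 9 had an unadjusted p under 0.05, while 0.49% of all genes passed at an adjusted p of 0.05. For Isg20 the effect differed by -0.42 between the sets (SE 0.37), with an adjusted p of 0.576 in limma and an exact p of 0.381 when genotype was permuted within the sets.

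The level itself differed between the scan days for 2 of the 9 genes. Ifit2 was higher on the second day by 0.57 (SE 0.14, limma adjusted p = 0.00425), and Oasl1 was lower by 0.42 (difference -0.42, SE 0.15, limma adjusted p = 0.0391). The difference between days was thus larger in size for these genes than that between genotypes. Scan day and replicate set, and whatever else set these mice apart, cannot be told apart.

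The members varied more between mice of 1 genotype and scan day than most genes did. The SD within genotype and day was 0.27 for both Oasl1 and Ifit2, 0.54 for Oas2 and 0.56 for Ifit3, against a median of 0.23 over all genes. Between 60.4% and 95.6% of all genes had a smaller SD than the member. From the lowest to the highest of 14 arrays, Oas2 spanned 3.87-fold, Ifit3 3.63-fold and Oas3 2.02-fold.

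Much of this spread was shared among the OAS and IFIT genes. The correlation of a member with the mean of the other members was calculated within each replicate set. It lay between 0.28 (Oas3) and 0.96 (Oasl2) for the 8 OAS and IFIT genes in replicates 1 to 3 (6 arrays), and between 0.63 (Oasl2) and 0.86 (Ifit3) in replicates 4 to 7 (8 arrays). For Isg20 it was -0.21 and 0.18. These values are descriptions, since arrays share a scan day and slides. The mean deviation of the 8 OAS and IFIT genes was highest in WT replicates 7 (0.53), 3 (0.38) and 1 (0.37). It was lowest in Sting gt/gt replicates 1 (-0.49) and 6 (-0.47), and then in WT replicates 5 (-0.30) and 2 (-0.23). Low levels of these genes thus occurred in both genotypes. The highest Sting gt/gt array, replicate 7 (0.23), lay below WT replicates 1, 3 and 7.

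**Figure D3:**
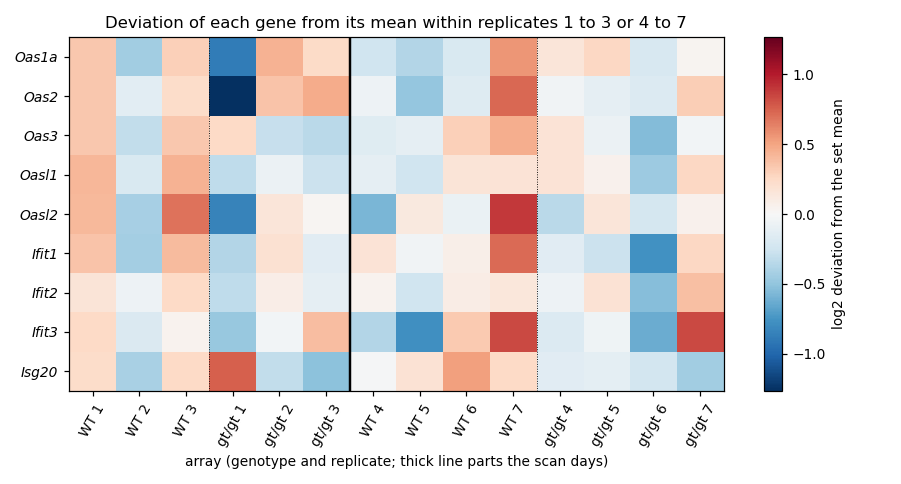
Deviation of each gene (rows) on each array (columns) from its mean within replicates 1 to 3 or 4 to 7, on the log2 scale (colour), with the genotype given under each column. In Sting gt/gt replicate 1 Isg20 is high while Oas1a, Oas2, Oasl2 and Ifit3 are low, and in WT replicate 7 all 9 genes are high.

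The 5 genes most like the mean of the members were all genes known to be induced by interferon. Likeness was the lower of the correlations in the replicate sets, over 6 and 8 arrays. Irf7, a transcription factor of the interferon response, was the most alike (r = 0.96 in replicates 1 to 3 and 0.98 in replicates 4 to 7). It was followed by Irgm1, an interferon-inducible GTPase (0.96 and 0.94), Xaf1 (0.94 and 0.96), Rtp4 (0.93 and 0.93) and Ifi44 (0.91 and 0.93). None of the 5 passed the threshold between genotypes, with differences from -0.23 (Ifi44, SE 0.38) to -0.05 (Rtp4, SE 0.19).

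Isg20 had other neighbours in this measure. The genes closest to Isg20 were Epb42, which encodes a membrane protein of red blood cells (r = 0.99 and 0.98), Dcun1d1 (0.99 and 0.98), Trak2 (0.99 and 0.98), Serinc1 (0.97 and 0.99) and Dhrs11 (0.97 and 0.98). This comparison was added after the values of Isg20 had been seen. Isg20 was therefore set beside a list of 7 erythroid genes. This list was singled out because of Epb42 in these same arrays, so the p-values that follow are descriptions only. The mean of the list and Isg20 had a Pearson r of 0.95 in replicates 1 to 3 (exact permutation p = 0.00972, Spearman's rho 1, exact p = 0.00278, 6 arrays). In replicates 4 to 7 r was 0.88 (exact permutation p = 0.00424, Spearman's rho 0.90, exact p = 0.00456, 8 arrays). Like the other correlations given here, these pool both genotypes. In replicates 4 to 7 both Isg20 (-0.47) and the mean of the list (-0.29) were lower in Sting gt/gt. The r of that set therefore includes the difference between genotypes, and with it that between slides. Without the 2 arrays farthest from the median of the list, r was 0.97 and 0.58. Isg20 was also related to lists of other cell types, in part in only 1 replicate set. With the plasmacytoid dendritic cell list, Spearman's rho was -1 in replicates 1 to 3 and -0.33 in replicates 4 to 7. The Pearson r was -0.85 and -0.54, and it was -0.80 and 0.63 without the 2 arrays farthest from the median of that list. With the plasma cell list, Spearman's rho was -0.71 and -0.86, and the Pearson r was -0.41 and -0.83. In all, 162 relations of 9 genes, 9 cell type lists and 2 replicate sets were computed, and none had an adjusted p under 0.05 (exact permutation; 0.6 for Isg20 and the erythroid list in either set).

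The erythroid list was not uniform. Klf1, the erythroid transcription factor, followed Isg20 at r = 0.96 and 0.83. The globin genes Hba-a1 (0.06 and -0.20) and Hbb-bt (0.16 and -0.34) did not follow it. For the 8 OAS and IFIT genes, the correlation with the erythroid list ran from -0.57 (Oas2) to 0.90 (Oas3) in replicates 1 to 3, and from -0.50 (Oas2) to 0.28 (Oas3) in replicates 4 to 7. The cell preparation that the study describes includes lysis of red blood cells, but the labels name spleen as the source, and whether the lysis applied to the array samples is not given in the sources used here.

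**Figure D4:**
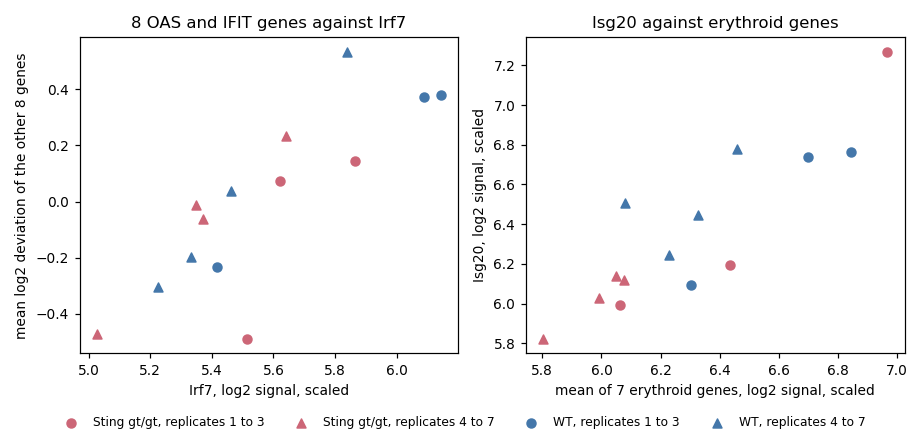
Left, mean log2 deviation of the 8 OAS and IFIT genes (y axis) against the scaled log2 signal of Irf7 (x axis). Right, scaled log2 signal of Isg20 (y axis) against the mean of 7 erythroid genes (x axis), 1 point per array, with colour for genotype and shape for replicate set. Sting gt/gt replicate 1 is lowest on the y axis of the left panel and highest on both axes of the right panel.

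Some cell type lists differed between the genotypes in replicates 4 to 7, the set in which Isg20 was called. All markers of the B cell, plasma cell, T cell, NK cell, macrophage and monocyte, dendritic cell and erythroid lists were tested, and of the neutrophil list Ly6g was not. The mean level of the erythroid list lay between 5.80 and 6.97 in Sting gt/gt and between 6.08 and 6.84 in WT mice. It was highest in Sting gt/gt replicate 1. That array was 0.90 above the mean of the other Sting gt/gt arrays, and 0.72 above the mean of those of its scan day. In replicates 4 to 7, where each slide held only 1 genotype, 23.7% of all genes were called and 11.3% were called lower. The mean of the erythroid list was lower in Sting gt/gt by 0.29 in that set (difference -0.29), with 4 of 7 genes called lower. The globin genes of the list, Hba-a1 (0.04) and Hbb-bt (0.11), went the other way there, and neither was highest in Sting gt/gt replicate 1. In the same set the lists of T cells (-0.04), NK cells (0.06), macrophages and monocytes (0.03) and plasmacytoid dendritic cells (0.02) differed little. Those of neutrophils and conventional dendritic cells differed by 0.24 and 0.16. The B cell list differed by -0.50 (6 of 7 called lower) and the plasma cell list by 0.40 (4 of 6 called higher). Both lists went the other way in replicates 1 to 3 (0.31 and -0.12), and no gene of either was called across all 14 arrays (-0.15 and 0.18). The part of these cell types in the Isg20 difference was not tested, and in bulk RNA fewer cells of a type and less RNA per cell cannot be told apart.

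Of 45 other genes of the pathway 41 were tested, and Oas1b, Oas1h, Mx1 and Mx2 were not. In Sting gt/gt 23 were lower and 18 higher, with a median of -0.05, and 1 was called, beside 3.54% of all genes. The gene called was Ifnar1, a chain of the type I interferon receptor. Ifnar1 fell by 0.23 (difference -0.23, SE 0.095, limma adjusted p = 0.999). The study names Ifnar1 and Irf9 among the genes lower in Sting gt/gt, and it made that list from the same measurements. Finding them lower here therefore repeats the listing and adds nothing separate to it. The shared level of the members was not that of Ifnar1, with which they correlated at 0.29 and 0.10.

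Among the transcription factors of the response, Stat2, Irf9 and Irf7 did not pass the threshold. The difference was -0.05 for Stat2 (SE 0.14), -0.09 for Irf9 (SE 0.095) and -0.16 for Irf7 (SE 0.17). Irf9 (r = 0.78 and 0.94) and Usp18, which restrains signalling at the receptor (0.93 and 0.88), also followed the mean of the members. In replicates 1 to 3 the 1 pathway gene called was Pde12, which degrades 2-5A, at -0.56, beside 3.77% of all genes. In replicates 4 to 7 Pde12 was called in the other direction, at 0.32. In that set 5 of the 41 pathway genes were called lower and 6 higher, which is close to the 23.7% of all genes called.

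Of the other antiviral effectors, 9 of 12 tested were lower and none was called. Isg15, a ubiquitin-like modifier, had a difference of -0.39 (SE 0.19, limma adjusted p = 0.999), and Rsad2, which encodes viperin, one of -0.25 (SE 0.17). Eif2ak2, the kinase PKR that double-stranded RNA activates, had one of 0.01 (SE 0.10). In replicates 4 to 7 Isg15 (-0.45) and Rsad2 (-0.32) were called lower, and Bst2 (0.44) and Samhd1 (0.33) higher, beside 23.7% of all genes. Isg15 and Rsad2 correlated with Isg20 at 0.69 and 0.96 in replicates 1 to 3, and at 0.86 and 0.77 in replicates 4 to 7. With the mean of the members they correlated at 0.58 and 0.07 in replicates 1 to 3, and at 0.48 and 0.44 in replicates 4 to 7. The erythroid list was thus not matched by Isg20 alone. Isg15 and Rsad2 correlated with it at 0.85 and 0.997 in replicates 1 to 3, and at 0.68 and 0.54 in replicates 4 to 7.

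The OAS and IFIT family members outside the 9 genes lie in the same clusters. Oas2, Oas3 and the Oas1 genes follow each other on chromosome 5, and Ifit2, Ifit3, Ifit1bl1, Ifit3b, Ifit1bl2 and Ifit1 on chromosome 19. Of 12 family genes, with Isg20l2 and Aen (the neighbour of Isg20) among them, 10 were tested. In Sting gt/gt 8 were higher and 2 lower, with a median of 0.09, and none was called. In replicates 4 to 7 Aen (0.27), Isg20l2 (0.33) and Oas1d (0.50) were called higher and Ifit1bl1 (-0.62) lower, beside 23.7% of all genes. Each went the other way in replicates 1 to 3 (-0.07, -0.20, -0.30 and 0.52). Oas1d and Ifit1bl1 also had low signals, with group means from -2.62 to -2.47. Aen, next to Isg20, thus differed in the other direction from Isg20 in replicates 4 to 7. No pathway gene passed an adjusted p of 0.05 in any of these fits.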

How the data were processed

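Intensity values per spot were made by the authors in Agilent Feature Extraction (version 11.0.1.1 in the deposited headers), with no scaling between arrays. The authors also deposited a table of log2 values, which correlated with the log2 intensity at 0.997 to 0.999. Here the log2 processed intensity was scaled by the 75th percentile of each array, spots flagged as outliers were left out, and a probe was tested if at least 7 of 14 arrays had it well above background. Of 56605 probes, 32994 (58.3%) were named through RefSeq accessions. The genotypes were compared with limma 3.58.1 in R 4.3.3 without covariates, at an unadjusted p of 0.05, and p-values were adjusted by Benjamini-Hochberg over 24908 genes. Single values were compared by two-sided exact permutation tests. The number of arrays limits the precision.

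All 9 members were named, with pathway genes past the threshold, a fixed set of pathway genes and the 5 genes most like the members. Some genes that this rule names are not reported here. The members and lists were chosen with earlier results of these data known. Replicate numbers follow the scan day, and arrays of the same number deviated together (r from 0.155 to 0.533). With scan day removed, r ran from -0.41 to 0.25 and was negative in 3 of 7 pairs. The limma step was tested on simulated data.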

Additional observations from a re-analysis of the deposited data

Results flagged for a closer look

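The highest or lowest array of 7 was checked in each genotype for each of the 9 genes by Dixon's ratio of its gap to the range, and 3 of 18 groups stood out, where chance gives about 1 in 20. Isg20 in Sting gt/gt replicate 1, at 7.27, was the highest of its group with a ratio of 0.742. The same array was the lowest of its group for Oas2, at 1.27, with a ratio of 0.607. Oasl1 in Sting gt/gt replicate 6, at 1.91, was the lowest of its group with a ratio of 0.645.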

How the results depend on the processing

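The result that no member passed the threshold held under median centring, quantile normalization, no scaling, normexp, the authors' table, both filters on dim probes, flagged spots kept, the mean of probes, the methods' t-test, the exact permutation test, and replicate number, scan day or slide as a block. Array weights with an intensity trend called 2 members (Ifit1 -0.42 and Isg20 -0.38) beside 17.7% of all genes, and replicates 4 to 7 alone called 1 (Isg20). Leaving out 1 array at a time called 0 to 1 members, namely Isg20 when Sting gt/gt replicate 1 was left out and Ifit1 when it was replicate 2. Scan day as a block without Sting gt/gt replicate 1, chosen after seeing the data, called 1 (Isg20, -0.46) beside 12.5% of all genes. The median over the members ran from -0.27 to -0.11 when 1 array was left out. The interaction count was 0 by exact permutation too.

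Of 308 gene results under other settings, 279 kept direction and side of the threshold, 6 passed it and 23 turned direction. None of the turned values passed the threshold, and the cause was not tested. Oas1a was -0.0035 under median centring, -0.016 under quantile normalization, -0.046 with no scaling, -0.011 in the authors' table, -0.42 with slide as a fixed block, -0.10 with slide as a random block and -0.14 in replicates 1 to 3. Isg20 was 0.24 with slide as a fixed block, and Oasl1 was 0.015 in replicates 4 to 7. With scan day as a block and without Sting gt/gt replicate 1, Oas2 was 0.10 and Ifit3 0.047. Leaving out 1 array, Oas1a ran from -0.10 to 0.12, Oas2 from -0.22 to 0.068 and Ifit3 from -0.22 to 0.13.

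Over all genes, 882 were called, against 1928 in the authors' table, 4419 with array weights and trend, 1803 with scan day as a block, 439 with slide as a random block, 5911 in replicates 4 to 7 and 3122 with scan day as a block without Sting gt/gt replicate 1. Leaving out 1 array, the count ran from 494 to 1963. The lowest count was without Sting gt/gt replicate 6, followed by 530 when Sting gt/gt replicate 5 was left out, and the highest was without Sting gt/gt replicate 1. The replicate block called 1408 genes and 0 members. Of the called genes, 45.9% were lower in Sting gt/gt in the main scaling, 69.4% under median centring and 80.5% with no scaling. The median of all genes moved by less than 0.1 under each scaling.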
